A study of Homo sapiens with 9 samples.

Results

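Genes that were all but unread in control cells and were read in every library of at least 1 ZIP7 siRNA form the subject of this report. A gene was silent where each of the 3 siNC libraries held at most 3 of its reads, and on where each of the 3 libraries of siZIP7_1, or each of the 3 of siZIP7_2, held at least 10. FLI1 and the histone genes were left out. The rule picked 148 protein-coding genes out of 5997 that were silent with siNC and 19800 examined. Of these, 31 were on with siZIP7_1 only (first only), 109 with siZIP7_2 only (second only) and 8 with both. Since the genes were chosen by their counts with siNC and with the siRNAs, their rise over siNC is the rule itself, and it is described here without a test.

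All cells were MDA-MB-231, a triple-negative human breast cancer line. They were transfected with a nontargeting control siRNA (siNC) or 1 of 2 siRNAs to ZIP7 (siZIP7_1, siZIP7_2), and their total RNA was taken 96 h later. Each group had 3 libraries, 9 in all, from 1 cell line with 1 sequence per siRNA. The labels do not say whether the 3 libraries of a group came from separate cultures, so the spread between them may be technical.

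ZIP7, encoded by SLC39A7, is a zinc transporter that moves zinc from the endoplasmic reticulum and Golgi into the cytosol. In any cell type a large part of the protein-coding genes is not transcribed, because the factors that start them are absent or their chromatin is closed, and most of these genes serve other tissues.

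SLC39A7 reads fell with both siRNAs. Its level was 321 to 343 CPM (counts per 1e6 reads counted on genes, after TMM scaling) with siNC, 32.9 to 38.6 with siZIP7_1 and 17.6 to 20.5 with siZIP7_2, and no library of an siRNA group overlapped the control. On the log2 scale the level fell by 3.20 with siZIP7_1 (SE 0.058, edgeR quasi-likelihood adjusted p = 7.38e-27) and by 4.10 with siZIP7_2 (SE 0.063, adjusted p = 1.16e-28). Between 24153785 and 30454419 reads were counted on genes per library, so that 3 reads in a library stood for 0.0985 to 0.124 CPM. Reads on no gene made up 7.43 to 8.28% with siNC, 7.8 to 9.62% with siZIP7_1 and 9.99 to 11.5% with siZIP7_2, which moves with the larger number of genes on with siZIP7_2, and its part in that number was not tested. Among markers of the line, VIM, CD44 and AXL were high in all libraries, while SPARC had 7 to 18 reads with siNC. Of genes taken to be low in the line, PGR had at most 2 reads in any library, but GATA3 had 386 to 443 and EPCAM 150 to 194 with siNC, and CDH1 went from 10 to 17 with siNC to 116 to 129 with siZIP7_1. Of 14 markers of other cell types, MYOD1, INS and KRT5 had no read in any library, and CD3E, SNAP25 and ALB had at most 2 in any. Others were higher with siZIP7_2 than with siNC, namely PECAM1 (205 to 276 reads after 67 to 92), KRT14 (66 to 92 after 9 to 18), VWF (98 to 115 after 0 to 4), CDH5 (31 to 41 after 0 to 1) and RBFOX3 (13 to 17 after 2 to 4), and their part in the results was not tested.

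The second siRNA turned on more genes than the first. Of the 5997 silent genes, 39 (0.65%) were on with siZIP7_1, 117 (1.95%) with siZIP7_2 and 148 (2.47%) with either. With the same limits applied in the opposite direction, 41 genes were silent with siZIP7_1 and on with siNC (0.694% of 5910 silent genes), but only 3 were silent with siZIP7_2 and on with siNC (0.0561% of 5343). Thus about as many genes were silenced as turned on with siZIP7_1, while with siZIP7_2 far more were turned on. Set against each other, the siRNAs left 151 genes silent with siZIP7_1 and on with siZIP7_2, and 18 the other way. The number of protein-coding genes with at least 10 reads in every library was 12415 with siNC, 12515 with siZIP7_1 and 12901 with siZIP7_2. Other gene types showed the same order, with 42 of 33049 silent genes (0.127%) on with siZIP7_1 and 110 (0.333%) on with siZIP7_2.

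**Figure D1:**
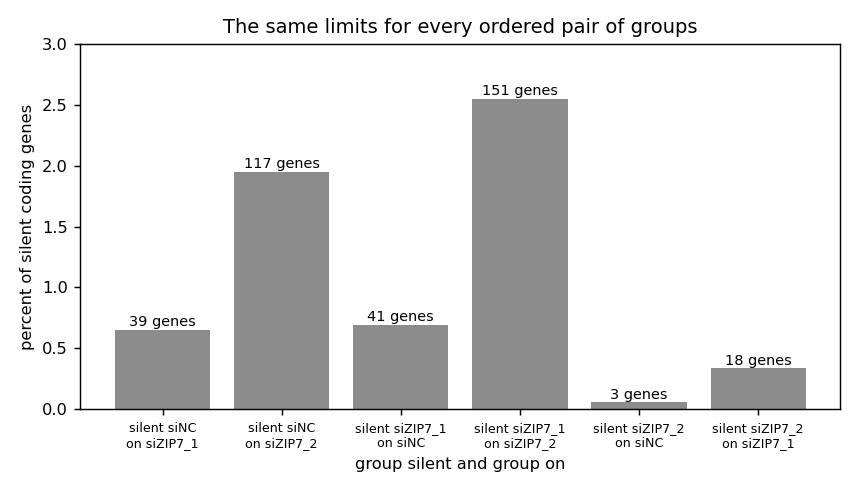
Percent of silent protein-coding genes (y axis) that were on in another group, for each ordered pair of groups (x axis), with the number of genes over each bar. The bars for genes silent with siNC (39 and 117) and silent with siZIP7_1 (41 and 151) stand above those for genes silent with siZIP7_2 (3 and 18).

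Together the 148 genes held 159 to 194 reads per siNC library, 2357 to 2796 per siZIP7_1 library and 3251 to 3939 per siZIP7_2 library. Their summed level was thus 6.42 to 6.74 CPM, 82.3 to 91.8 CPM and 123 to 137 CPM. Most members stayed far below the level of an ordinary expressed gene. The median level of first-only members with siZIP7_1 was 0.23 RPKM (CPM per kilobase of exon), against 6.32 for all protein-coding genes with 10 reads in every siZIP7_1 library, and that of second-only members with siZIP7_2 was 0.211 against 5.61. KRTAP4-8 with siZIP7_1 had the highest level of any member, at 17.4 RPKM, and no other member passed 3 RPKM with either siRNA. In bulk RNA, a strong signal from a few cells and a weak one from many cannot be told apart.

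**Figure D2:**
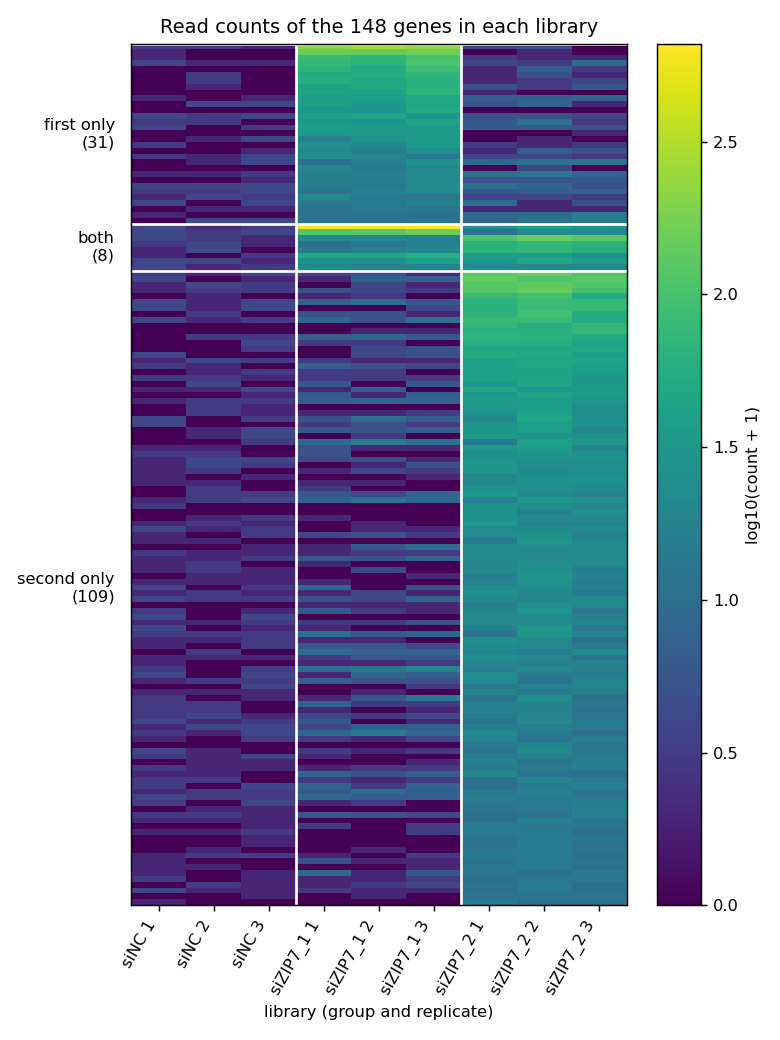
Read counts of the 148 genes (rows, sorted within each class by their higher mean) in the 9 libraries (columns), colored by log10(count + 1). The siNC columns stay at or under 3 counts by the rule, and 31, 8 and 109 genes are on with siZIP7_1 only, both siRNAs and siZIP7_2 only.

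The classes were not equally sharp. Of the 31 first-only genes, 12 also had at most 3 reads in every siZIP7_2 library, and of the 109 second-only genes, 59 had at most 3 in every siZIP7_1 library and 12 had none at all there. The others had some reads with the other siRNA: 6 first-only genes reached 10 reads in 1 or 2 siZIP7_2 libraries, and 9 second-only genes did so in siZIP7_1 libraries. TMEM191B, ADGRG4 and WISP2 lay on this border. TMEM191B had 10, 10 and 11 reads with siZIP7_1 and 7, 10 and 14 with siZIP7_2. ADGRG4, an adhesion receptor gene, had 9, 12 and 19 with siZIP7_1 and 16, 20 and 16 with siZIP7_2. WISP2, a matricellular protein, had 15, 16 and 20 with siZIP7_1 and 10, 12 and 8 with siZIP7_2. For these genes the class rests on 1 or 2 libraries by a few reads.

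**Figure D3:**
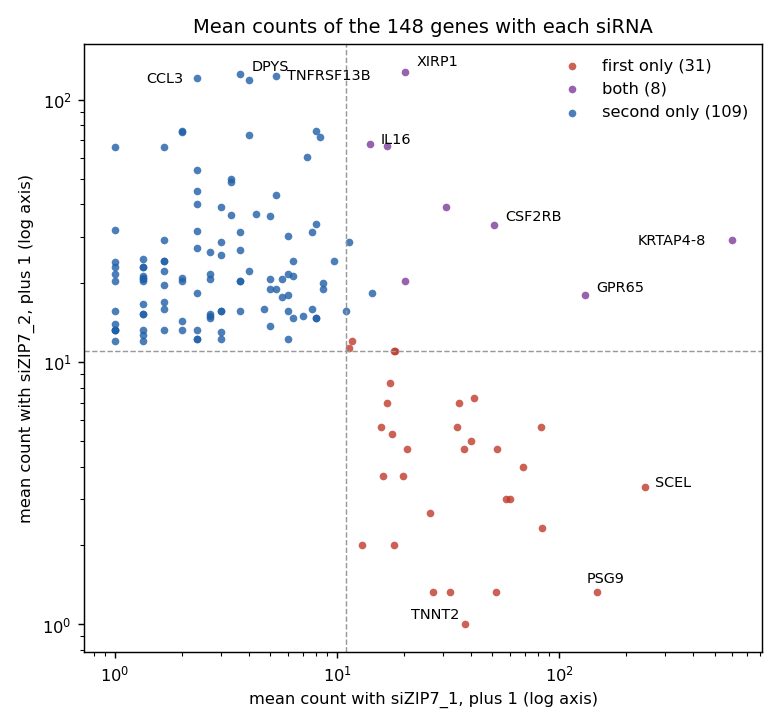
Mean count over 3 libraries with siZIP7_1 (x axis) and siZIP7_2 (y axis), each plus 1 on a log axis, for each of the 148 genes, colored by class. Dashed lines mark a mean of 10. The 8 genes on with both lie in the upper right, and most first-only and second-only genes lie beyond the line of their own siRNA alone.

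The limits of 10 and 3 reads are arbitrary, and genes just past them look alike. With siZIP7_1, 4 members had a lowest library of exactly 10 reads (COL11A1, IL16, MAB21L4 and TMEM191B), and 4 genes missed the limit at 9 (ADGRG4, COL4A3, RGS18 and TNFAIP8L3). RGS18 had no read in any siNC library and 9, 15 and 12 with siZIP7_1. With siZIP7_2, 16 members had a lowest library of 10 and 14 genes one of 9, among them ERG with 11, 23 and 9. On the other side, 19 members on with siZIP7_1 had an siNC library at 3, and 20 genes were left out for an siNC library at 4, against 42 and 36 for siZIP7_2. Some genes left out in this way rose far more than most members. TNF, the inflammatory cytokine, had 4, 2 and 3 reads with siNC, 4, 0 and 0 with siZIP7_1 and 561, 523 and 455 with siZIP7_2. NKX2-1, a lung and thyroid homeobox factor, had 4, 3 and 3 with siNC and 184, 166 and 219 with siZIP7_1. OLR1, a receptor for oxidized LDL, had 1, 4 and 0 with siNC and 131, 118 and 161 with siZIP7_1. VWF, the endothelial clotting protein, had 0, 2 and 4 with siNC, 27, 24 and 28 with siZIP7_1 and 105, 115 and 98 with siZIP7_2. None of them is a member, and all were named for lying next to a limit.

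A library left out of the choice is not itself held to the limits, but it comes from the same groups that chose the genes. It shows how far the libraries of a group repeat each other, and is no test of the rise over siNC. Genes were chosen again on 2 libraries per group and looked up in the third. With siZIP7_1 this chose 65, 59 and 53 genes when replicate 1, 2 and 3 was left out, and the left-out siRNA library held more reads than the left-out siNC library for 63, 59 and 52 of them. With siZIP7_2 it chose 170, 140 and 175 genes, and 169, 140 and 173 were higher in the left-out siRNA library. So the left-out libraries went the other way, or were equal, for at most 2 genes in any of these choices. Fewer genes met both limits in the left-out libraries. They were 39 in each choice with siZIP7_1 and 117 in each with siZIP7_2, which are the members themselves. The libraries of a group may be technical repeats, so a left-out library may not be an independent one.

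With both siRNAs, 8 genes were on. Here the siRNAs can be compared, since the rule set the same limits for both and did not use the difference between them. The class does leave out genes under 10 reads in a library of either siRNA, which limits the differences it can hold. Of the 8, 6 differed between siZIP7_2 and siZIP7_1 at an adjusted p under 0.05, 3 higher and 3 lower with siZIP7_2 (edgeR quasi-likelihood test over all 16761 genes kept). Over all 13322 protein-coding genes tested, 38.6% were higher and 43.7% lower with siZIP7_2 than with siZIP7_1, so this share is near the background. Although they were on with both, most of these genes thus had unequal levels.

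KRTAP4-8 (ENSG00000204880), a hair keratin-associated protein, showed the largest gap. Its counts were 3, 1 and 2 with siNC, 575, 553 and 660 with siZIP7_1 and 22, 38 and 25 with siZIP7_2. The first siRNA gave 20.2 ± 1.06 CPM (SD, n = 3) and the second 1.02 ± 0.205, and the libraries of the groups lay far apart. On the log2 scale the level was -4.28 with siZIP7_2 relative to siZIP7_1 (SE 0.13, 95% interval -4.54 to -4.02, edgeR adjusted p = 1.86e-22). GPR65, a proton-sensing receptor of lymphoid cells, went the same way. It had 3, 2 and 3 reads with siNC, 111, 121 and 158 with siZIP7_1 and 11, 21 and 19 with siZIP7_2, a log2 difference of -2.82 (SE 0.2, edgeR adjusted p = 1.56e-13). CSF2RB, the beta chain shared by the receptors for GM-CSF, IL-3 and IL-5, was on at similar levels. Its counts were 1, 0 and 2 with siNC, 48, 45 and 57 with siZIP7_1 and 37, 35 and 25 with siZIP7_2. The difference of -0.52 (SE 0.21, edgeR adjusted p = 0.0294) did not pass the threshold with DESeq2 (adjusted p = 0.192), nor without siZIP7_1 replicate 1 (adjusted p = 0.0629) or 3 (0.0791), or siZIP7_2 replicate 2 (0.0742) or 3 (0.132).

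XIRP1, an actin-binding protein of striated muscle, was higher with the second siRNA. It had 3, 2 and 1 reads with siNC, 21, 21 and 16 with siZIP7_1 and 107, 149 and 126 with siZIP7_2, a log2 difference of 2.81 (SE 0.19, edgeR adjusted p = 7.63e-14). IL16, a lymphocyte chemoattractant, had 2, 3 and 1, then 10, 12 and 17, then 63, 72 and 66 reads, a difference of 2.46 (SE 0.23, edgeR adjusted p = 1.16e-10). ARL14, a small GTPase, had 1, 3 and 0, then 12, 16 and 19, then 68, 72 and 57 reads, a difference of 2.17 (SE 0.24, edgeR adjusted p = 3.34e-09). In all 3 genes every siZIP7_2 library stood above every siZIP7_1 library. The remaining 2 genes did not pass the test. TMIE, a part of the mechanotransduction channel of inner ear hair cells, had 3, 3 and 1 reads with siNC, 25, 26 and 39 with siZIP7_1 and 31, 48 and 35 with siZIP7_2. Its log2 difference was 0.45 (95% interval -0.02 to 0.91, edgeR adjusted p = 0.0764), and it was 0.61 without siZIP7_1 replicate 3 (adjusted p = 0.0428). ATG9B, a lipid scramblase of the autophagy machinery, had 3, 1 and 2, then 22, 17 and 19, then 20, 19 and 19 reads, and its difference of 0.11 had a 95% interval of -0.46 to 0.67 (edgeR adjusted p = 0.736).

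Skin, hair and squamous epithelium gave 10 members, of which 5 were first only, beside 31 of all 148. They include structural genes of the cornified envelope and of hair as well as cytokines, a serpin and a channel. SCEL (ENSG00000136155), the cornified envelope precursor sciellin, had 2, 2 and 1 reads with siNC, 215, 283 and 225 with siZIP7_1 and 3, 4 and 0 with siZIP7_2. The ratio of siZIP7_1 to siNC was 129-fold, with a 95% exact counting interval of 55 to 399. CRNN, the squamous protein cornulin, had 1, 0 and 0 with siNC, 82, 68 and 97 with siZIP7_1 and 2, 1 and 1 with siZIP7_2 (220-fold, 39.2 to 8740). Such intervals cover counting error only, and are wide because the control holds so few reads. MAB21L4 had 11, 11 and 10 reads with siZIP7_1 and 9, 9 and 15 with siZIP7_2, and so missed being on with both by 1 read in 2 libraries. The 4 second-only genes of this group were the IL-1 family genes IL36G and IL36RN, the serpin SERPINB4 and the warmth-gated channel TRPV3. SERPINB4 had no read with siNC or siZIP7_1 and 14, 18 and 12 with siZIP7_2, at least 14.1-fold higher against a floor of 3 reads over the siNC group. TRPV3 had 22, 19 and 21 reads with siZIP7_2. Of 38 silent keratin genes none was a member, a count too small to set against the 2.47% of all silent genes. KRT14, a keratin of basal epithelium that was not silent, had 9, 18 and 16 reads with siNC, 5, 6 and 4 with siZIP7_1 and 90, 92 and 66 with siZIP7_2, where it rose by 2.46 on the log2 scale (SE 0.24, edgeR adjusted p = 2.52e-10).

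The KRTAP4 genes stand side by side on chromosome 17, and 3 of the 12 in the annotation were members, all 12 being silent with siNC. Among all KRTAP genes it was 3 of 93 silent ones (3.23%), beside 2.47% of all silent genes. KRTAP4-11 had 0, 2 and 0 reads with siNC, 59, 48 and 62 with siZIP7_1 and 1, 2 and 3 with siZIP7_2 (75.4-fold with siZIP7_1, 20.6 to 628). KRTAP4-7 had 0, 0 and 1, then 21, 15 and 23, then 1, 6 and 4 (52.6-fold, 9.09 to 2110). KRTAP4-9, with 11, 7 and 12 reads with siZIP7_1 and none with siNC, missed the limit in 1 library. All 4 were highest with siZIP7_1, and the other 8 had at most 2 reads in any library. The genes span chr17:41084150-41118360 on GRCh38 in GENCODE 29. They are close copies of one another, and how reads that fit several of them were treated is not given, so the division of reads among them is uncertain. The counts record 0 reads with several alignments over the 9 libraries, which does not say whether such reads were removed before counting.

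Because these 3 members moved together, the 120 bases before each RefSeq start are shown, with a TATA box (TATAAA), a GC box (GGGCGG) or a CCAAT box on either strand in capitals. Position and strand are those of RefSeq on GRCh38.p14: KRTAP4-8 at chr17:41098143-41098262 (minus strand), KRTAP4-11 at chr17:41118374-41118493 (minus) and KRTAP4-7 at chr17:41084030-41084149 (plus).
KRTAP4-8: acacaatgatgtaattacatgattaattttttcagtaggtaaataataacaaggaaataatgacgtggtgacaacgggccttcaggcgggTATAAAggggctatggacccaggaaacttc
KRTAP4-11: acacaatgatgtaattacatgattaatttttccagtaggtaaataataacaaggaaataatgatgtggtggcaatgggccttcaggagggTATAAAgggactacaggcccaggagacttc
KRTAP4-7: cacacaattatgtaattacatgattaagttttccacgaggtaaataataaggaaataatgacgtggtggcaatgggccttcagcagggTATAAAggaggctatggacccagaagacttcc

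The TATAAA begins 30, 30 and 32 bases before the start. KRTAP4-8 shared 91.7% of these bases with KRTAP4-11 and 88.3% with KRTAP4-7, although with siZIP7_1 their levels were 17.4, 1.62 and 0.673 RPKM. TATAAA on either strand was found in 6.01% of 27305 RefSeq promoters over the same stretch, GGGCGG in 34% and CCAAT in 21.2%. RefSeq promoters were matched for 114 of the 148 genes (77%), under the 80% needed to describe the set, so no property of all members' promoters is given.

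Placenta gave 3 members. PSG9 (ENSG00000183668), a pregnancy-specific glycoprotein secreted by the trophoblast, had 1, 0 and 0 reads with siNC, 147, 138 and 155 with siZIP7_1 and 0, 1 and 0 with siZIP7_2 (393-fold with siZIP7_1, 70.1 to 15500). PSG5 had 2, 0 and 0, then 24, 19 and 33, then 2, 1 and 2 (33.9-fold, 9.07 to 285). Both were on with siZIP7_1 and stayed at the control level with siZIP7_2. Their neighbor PSG4, not silent and so no member, had 48, 19 and 25 reads with siNC, 1061, 1017 and 1363 with siZIP7_1 and 40, 52 and 28 with siZIP7_2. PSG4 rose by 5.05 on the log2 scale with siZIP7_1 (SE 0.14, edgeR adjusted p = 1.08e-22), while with siZIP7_2 the value was 0.32 (SE 0.25, adjusted p = 0.238). PSG1, PSG2, PSG3, PSG6 and PSG8 had 2 to 12 reads in the siZIP7_1 libraries and at most 1 with siNC. The PSG genes are close copies of each other, so the division of these low counts among them is uncertain. CGB3, a beta subunit of chorionic gonadotropin, was on with siZIP7_2 only, with 16, 17 and 12 reads after 2, 2 and 0 with siNC, and it too has near-identical copies, of which CGB7 had 50 to 59 and CGB8 14 to 19 reads with siZIP7_2.

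**Figure D4:**
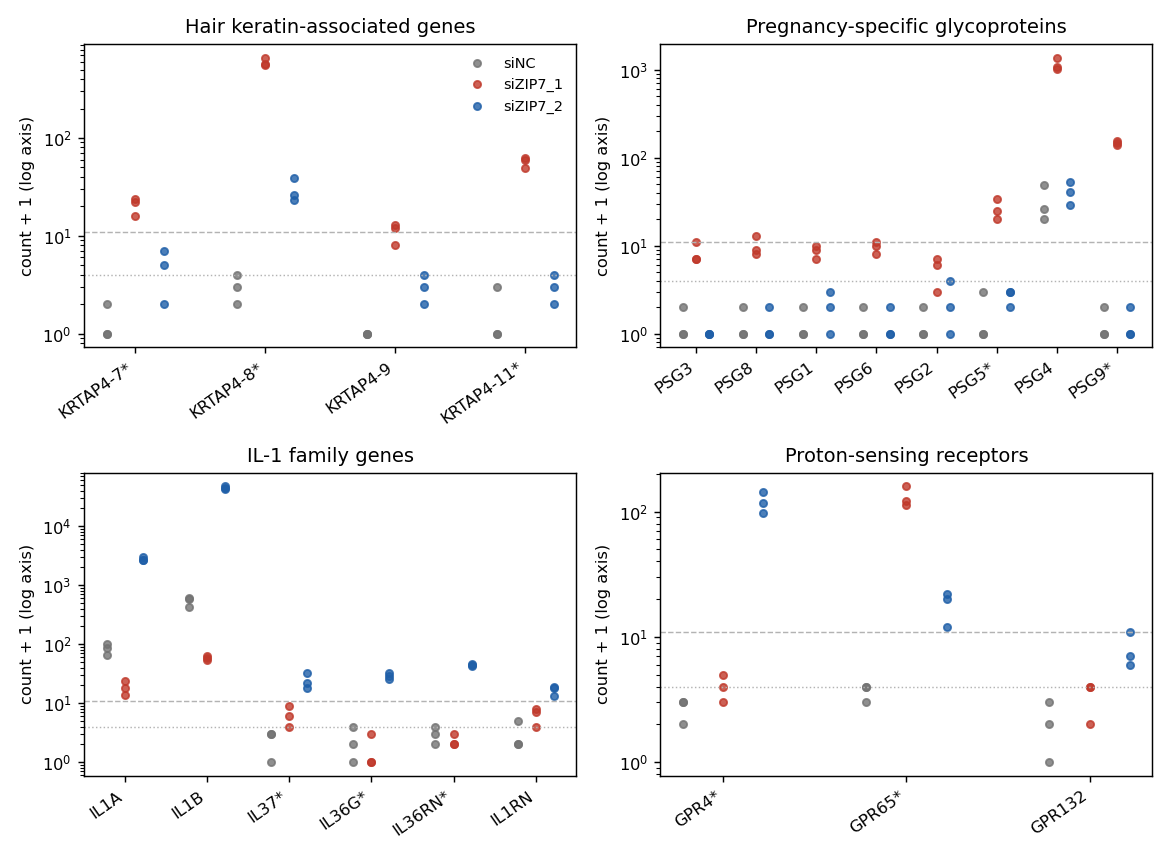
Count plus 1 (log axis) in each library, 3 points per group, for KRTAP4, PSG, IL-1 family and proton-sensing receptor genes (x axis); an asterisk marks a member, the dotted line 3 counts and the dashed line 10. KRTAP4 and PSG genes are highest with siZIP7_1 (KRTAP4-8 at 553 to 660 reads), IL-1 family genes with siZIP7_2 (IL1B at 42015 to 47378), and GPR65 is highest with siZIP7_1 where GPR4 is highest with siZIP7_2.

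Blood and immune cells gave 16 members, 12 of them second only, 1 first only and 3 on with both. Among all 148 members these classes held 109, 31 and 8 genes. CCL3 (ENSG00000277632), a chemokine that draws monocytes, had 1, 3 and 2 reads with siNC, 0, 3 and 1 with siZIP7_1 and 117, 130 and 112 with siZIP7_2 (57.5-fold with siZIP7_2, 26.1 to 158). At 2.93 RPKM it was the highest of the second-only genes. Another annotated gene overlaps 74.63% of its exonic length, and its near-identical copy CCL3L1 moved likewise, from 4 to 8 reads with siNC to 183 to 187 with siZIP7_2, so the division of reads between the copies is uncertain.

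Ligands and receptors of the TNF family were 4 of these members. TNFSF8, the CD30 ligand of activated lymphocytes, had no read with siNC, 0, 1 and 1 with siZIP7_1 and 60, 61 and 74 with siZIP7_2, at least 62.4-fold higher than the floor of 3 reads. TNFSF14, the ligand LIGHT, had 0, 1 and 2 with siNC and 40, 41 and 36 with siZIP7_2. TNFRSF13B, the B cell receptor TACI, had 3, 0 and 1 with siNC, 1, 6 and 6 with siZIP7_1 and 140, 104 and 123 with siZIP7_2 (88.1-fold, 34.1 to 325). TNFRSF17, the plasma cell receptor BCMA, had 1, 1 and 0 with siNC and 20, 25 and 25 with siZIP7_2. All 4 were on with siZIP7_2 and had at most 6 reads in any siZIP7_1 library. They were 2 of 4 silent genes named TNFSF and 2 of 5 named TNFRSF, beside 1.95% of all silent genes on with siZIP7_2, and these families were picked after their values were seen. Relatives that were no members did not all move alike: TNF rose in the same libraries, while TNFRSF13C, the B cell receptor BAFF-R, had 52, 38 and 55 reads with siNC and 17, 28 and 16 with siZIP7_2. TNFRSF13C fell by 1.30 on the log2 scale with siZIP7_2 (SE 0.23, edgeR adjusted p = 1.22e-05).

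To the IL-1 family cluster on chromosome 2 belong 3 members, and all were on with siZIP7_2 only. IL36G, an epithelial cytokine, had 0, 1 and 3 reads with siNC, 0, 2 and 0 with siZIP7_1 and 32, 28 and 25 with siZIP7_2 (20.4-fold, 7.68 to 76.6). IL36RN, the antagonist at its receptor, had 1, 3 and 2, then 2, 1 and 1, then 42, 45 and 44. IL37, an anti-inflammatory family member, had 0, 2 and 2, then 5, 3 and 8, then 32, 21 and 17. With siZIP7_2 their expressed neighbors IL1A and IL1B moved the same way on a much larger scale. IL1B, the secreted inflammatory cytokine, had 429 to 613 reads with siNC, 52 to 63 with siZIP7_1 and 42015 to 47378 with siZIP7_2. On the log2 scale IL1B fell by 3.39 with siZIP7_1 (SE 0.11, edgeR adjusted p = 1.18e-21) and rose by 6.31 with siZIP7_2 (SE 0.068, adjusted p = 5.35e-32). IL1A fell by 2.38 (SE 0.18, edgeR adjusted p = 1.76e-12) and rose by 5.01 (SE 0.081, adjusted p = 4.08e-28). The antagonist gene IL1RN, left out for 4 reads in an siNC library, had 12, 17 and 18 with siZIP7_2. IL36A, IL36B and IL1F10, in the same cluster, had at most 3 reads in any library.

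Unlike the KRTAP4 genes, IL36G and IL36RN share little of their 120 bases before the RefSeq start, shown here for contrast with the same motifs in capitals (IL36G at chr2:112977886-112978005 and IL36RN at chr2:113058518-113058637, both plus strand, GRCh38.p14).
IL36G: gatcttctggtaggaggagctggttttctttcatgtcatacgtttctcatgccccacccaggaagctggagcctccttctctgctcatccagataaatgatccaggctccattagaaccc
IL36RN: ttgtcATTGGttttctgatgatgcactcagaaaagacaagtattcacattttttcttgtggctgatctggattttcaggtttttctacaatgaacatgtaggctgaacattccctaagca

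The 2 stretches were identical at 41.7% of bases when aligned. Neither holds TATAAA, and IL36RN holds a CCAAT in reverse complement that begins 115 bases before the start.

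The other immune members held fewer reads. PDCD1, the T cell checkpoint receptor PD-1, had 3, 1 and 2 reads with siNC, 0, 1 and 1 with siZIP7_1 and 22, 21 and 21 with siZIP7_2. CD180, a Toll-like surface protein of B cells, had 2, 2 and 0, then 2, 1 and 2, then 10, 18 and 13. IRF4, a lymphoid transcription factor, had 0, 0 and 1, then 1, 5 and 9, then 20, 22 and 20. ACOD1, which makes itaconate in macrophages, the kinase MATK and the tyrosine phosphatase PTPN7 had 10 to 14 reads in the siZIP7_2 libraries. HSH2D, an SH2 adaptor of blood cells, was the only first-only gene of the group, with 0, 3 and 3 reads with siNC, 39, 31 and 47 with siZIP7_1 and 4, 7 and 1 with siZIP7_2. The T cell marker CD3E stayed near 0, with at most 1 read in any library. PTPRC, found on all white blood cells, had 8 to 12 reads with siNC, 23 to 28 with siZIP7_1 and 7 to 11 with siZIP7_2, so it was not higher where most immune members were on.

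Nerve cells and sense organs gave the largest group with a tissue, 24 members, of which 19 were second only and 4 first only. Of all 148 members, 109 were second only and 31 first only. NTS, the neuropeptide neurotensin, had no read with siNC, 43, 42 and 67 with siZIP7_1 and 1, 0 and 0 with siZIP7_2, at least 45.2-fold higher than the floor. SGIP1, an endocytic adaptor, had 0, 2 and 0, then 53, 55 and 68, then 1, 4 and 1 reads (78.5-fold with siZIP7_1, 21.4 to 653). BEX1, a small adaptor, had 2, 2 and 3, then 11, 16 and 20, then 5, 6 and 7. PCDHA12, a clustered protocadherin, had 3, 2 and 3, then 38, 41 and 30, then 4, 4 and 3, but 63.13% of its exonic length is shared with other genes of its cluster. In each of the first 2 genes the siRNAs gave groups of counts that lay far apart, with siZIP7_2 at the control level.

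With siZIP7_2, the 19 second-only nerve genes reached mean counts of 11.3 to 53. Channels, transporters and receptors were among them. SLC6A7, the brain proline transporter, had 0, 0 and 3 reads with siNC, 2, 2 and 0 with siZIP7_1 and 58, 58 and 43 with siZIP7_2. RDH8, a retinol dehydrogenase of photoreceptors, had no read with siNC or siZIP7_1 and 25, 15 and 26 with siZIP7_2, at least 21.1-fold higher. These genes were at the control level with siZIP7_1. Synaptic genes of the same class were SYN1, a vesicle phosphoprotein, with 20, 25 and 15 reads with siZIP7_2, CAMK2A, a calmodulin kinase subunit, with 12, 13 and 15, and RPH3A, a vesicle protein, with 19, 16 and 17. CALB1, a calcium buffer, had 3, 0 and 3 reads with siNC, 1, 8 and 6 with siZIP7_1 and 22, 14 and 15 with siZIP7_2. MRGPRX3, HES5, NSG2, CHRNA9, BEAN1, KCNH4, HCRT, ADORA1, FXYD7, TMEM59L, CELF5 and TBR1 also belong to the group, with 10 to 46 reads in the siZIP7_2 libraries. The neuronal marker RBFOX3 had 13, 13 and 17 reads with siZIP7_2 and up to 4 with siNC, and SNAP25 had 1 read in the 9 libraries together.

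Striated muscle and heart gave 8 members, 3 first only, 4 second only and XIRP1, described above, on with both. Over all members the classes held 31, 109 and 8 genes. TNNC1, the calcium-binding subunit of slow and cardiac troponin, had 3, 1 and 1 reads with siNC, 75, 65 and 106 with siZIP7_1 and 3, 2 and 9 with siZIP7_2 (43.9-fold with siZIP7_1, 18.6 to 136). TNNT2, the cardiac subunit that binds tropomyosin, had no read with siNC or siZIP7_2 and 29, 29 and 52 with siZIP7_1, at least 32.7-fold higher than the floor. ANKRD2, an ankyrin repeat protein of muscle, had 2, 2 and 0, then 31, 29 and 43, then 5, 11 and 2. The troponin I genes did not follow, with TNNI1 and TNNI2 at 0 with siZIP7_1 and TNNI3 at up to 4 reads in any library, so that no complete cardiac troponin was among the members. On with siZIP7_2 only were CORIN, the heart protease that activates atrial natriuretic peptide, with 41, 47 and 39 reads, ALPK2, an alpha kinase, with 62, 82 and 79, MYO18B, a sarcomere myosin, with 23, 25 and 16, and KCNJ18, a potassium channel with near-identical copies, with 31, 34 and 18. MYOD1, the factor that sets the muscle fate, had no read in any library, and DES had at most 7.

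Vascular genes gave 4 members, all second only, a class that held 109 of all 148 members. GPR4, a proton-sensing receptor of endothelium, had 1, 2 and 2 reads with siNC, 4, 3 and 2 with siZIP7_1 and 116, 142 and 96 with siZIP7_2 (68-fold, 28.9 to 211). CDH5, the cadherin of vascular junctions, had 0, 0 and 1, then 5, 1 and 6, then 31, 41 and 33 (101-fold, 17.7 to 4020). PTGIR, the prostacyclin receptor, had 11 reads in each siZIP7_2 library, and PCDH12, an endothelial protocadherin, 12, 14 and 11. With siZIP7_1, CDH5 had at most 6 reads in a library and the other 3 genes at most 4. PECAM1, an endothelial marker that was not silent, had 67 to 92 reads with siNC, 2 to 5 with siZIP7_1 and 205 to 276 with siZIP7_2. It thus fell by 4.83 on the log2 scale with siZIP7_1 (SE 0.29, edgeR adjusted p = 5.64e-15) and rose by 1.51 with siZIP7_2 (SE 0.13, adjusted p = 6.55e-12).

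The proton-sensing receptors GPR65 and GPR4, set side by side after their values were seen, took different courses. GPR65 was on with both siRNAs and highest with siZIP7_1, whereas GPR4 was on with siZIP7_2 only.

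Liver, kidney, gut and pancreas gave 13 members, 11 of them second only, beside 109 of all 148. DPYS, the pyrimidine catabolism enzyme dihydropyrimidinase of liver and kidney, had 2, 1 and 3 reads with siNC, 3, 4 and 1 with siZIP7_1 and 120, 147 and 106 with siZIP7_2 (59.7-fold, 27.2 to 164). FXYD2, the sodium pump's gamma subunit in kidney, had 0, 1 and 1, then 0, 0 and 0, then 11, 12 and 16. SLC22A13, a kidney organic anion transporter, had 0, 1 and 3, then 5, 4 and 6, then 30, 39 and 19. Its neighbor SLC22A14, a sperm transporter placed with the testis genes below, had 28, 40 and 24 with siZIP7_2. These genes were on with siZIP7_2 in all 3 libraries and stayed under 10 with siZIP7_1. MUC12, BTNL8, FTCD, SLCO1B7, SLCO2B1, CYP4F11, COLEC10 and ANPEP held 10 to 30 reads in the siZIP7_2 libraries. First-only members were ITIH3, a heavy chain of the inter-alpha-trypsin inhibitors, with 36, 37 and 48 reads with siZIP7_1 and 6, 6 and 7 with siZIP7_2, and FFAR1, a fatty acid receptor of beta cells, with 23, 19 and 14 and then 3, 3 and 2. ALB, the main plasma protein of liver, had at most 2 reads in any library.

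Solute carriers were 8 members, all second only, of 130 silent genes named SLC or SLCO (6.15%, against 1.95% of all silent genes on with siZIP7_2). Besides those of kidney, liver, sperm and brain they were SLC26A8, an anion transporter of sperm, SLC6A13, a GABA transporter, and SLC28A3, a nucleoside transporter, with 10 to 21 reads in the siZIP7_2 libraries. Of 383 silent olfactory receptor genes none was a member, and of 50 silent genes named ZNF none was. These families were picked after their values were seen.

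Testis, sperm and cilia gave 8 members, all second only, as were 109 of all 148 members. TEX29 had 0, 2 and 0 reads with siNC, 4, 4 and 1 with siZIP7_1 and 67, 95 and 55 with siZIP7_2 (104-fold, 28.5 to 866). COX6B2, a testis subunit of cytochrome c oxidase, had 3, 0 and 2, then 4, 10 and 6, then 21, 45 and 25. SYCP3, a component of the synaptonemal complex of meiosis, had 2, 0 and 1, then 1, 1 and 2, then 10, 12 and 12. Apart from COX6B2, no gene of this group had more than 4 reads in an siZIP7_1 library. Beside SLC22A14, the genes LEMD1, DRC1, SLC26A8 and C2orf16 held 10 to 27 reads in the siZIP7_2 libraries.

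Mesenchyme, cartilage and bone gave 5 members. FRZB, a secreted antagonist of WNT in cartilage, had 0, 0 and 2 reads with siNC, 0, 3 and 4 with siZIP7_1 and 49, 48 and 49 with siZIP7_2 (70.1-fold, 19.1 to 584). AEBP1, a collagen-binding matrix protein, had 0, 0 and 2, then 8, 13 and 10, then 13, 40 and 30. The first-only members COL11A1, a fibrillar collagen of cartilage, WISP2 and the helix-loop-helix factor TCF21 were all low. COL11A1 had 10, 16 and 26 reads with siZIP7_1 and 8, 11 and 11 with siZIP7_2. TCF21 had 11, 13 and 12 and then 1 in each library.

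Members also included the WNT ligands WNT10A and WNT5A, 2 of 13 silent WNT genes (1.95% of all silent genes were on with siZIP7_2), and NOTUM, grouped here after their values were seen. WNT10A had 34, 35 and 29 reads with siZIP7_2 after 1, 2 and 2 with siNC, and WNT5A had 11, 20 and 13 after 3, 1 and 2. NOTUM, which inactivates WNT ligands, had 25, 21 and 10 after 1, 1 and 2. With siZIP7_1, WNT10A had 6, 8 and 7 reads and the other genes at most 5. Like FRZB they were second only, whereas WISP2, named for its induction by WNT1, was first only.

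No tissue was assigned to 57 members, 11 first only, 44 second only and 2 on with both. Among the first only, RUBCNL, an autophagy regulator, had no read with siNC, 67, 49 and 88 with siZIP7_1 and 1, 6 and 2 with siZIP7_2, at least 60.7-fold higher than the floor. KCND3, a voltage-gated potassium channel, had no read with siNC, 31, 32 and 31 with siZIP7_1 and 0, 0 and 1 with siZIP7_2. RNF39, a RING finger gene, had 0, 1 and 0, then 42, 50 and 62, then 4, 2 and 5. These genes were near the control level with siZIP7_2. TMEM125, with 19, 13 and 19 reads with siZIP7_1, was the other one with no siNC read. CCDC144A, ANKRD34C, ASB18, SMIM24, FAM83E, DDIT4L and TMEM191B had 10 to 35 reads in the siZIP7_1 libraries.

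Of the second only without a tissue, BIRC7, the inhibitor of apoptosis also called livin, had 0, 1 and 0 reads with siNC, 1, 2 and 0 with siZIP7_1 and 79, 94 and 53 with siZIP7_2 (217-fold, 38.6 to 8610). CLDN6, a tight junction claudin, had 3, 1 and 3, then 7, 9 and 5, then 65, 83 and 76. NEURL3, a ubiquitin ligase, had 0, 2 and 2, then 6, 8 and 5, then 67, 62 and 50. BIRC7 was at the control level with siZIP7_1, while CLDN6 and NEURL3 were between. FREM3, an extracellular matrix gene, had no read with siNC or siZIP7_1 and 70, 56 and 70 with siZIP7_2, at least 62.7-fold higher than the floor. TLL2, a tolloid-like metalloprotease, had 78, 81 and 54 reads with siZIP7_2, and AMZ1 55, 49 and 39. CPXM1, the other one with no siNC read, had 1, 1 and 1 and then 16, 23 and 19. ESR1, the estrogen receptor whose absence helps define this line, was a member near the limits. It had 3, 2 and 2 reads with siNC, 9, 6 and 6 with siZIP7_1 and 15, 14 and 12 with siZIP7_2, which was 0.0362 RPKM.

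The other 36 of these second-only genes had 10 to 37 reads in the siZIP7_2 libraries. They include EPGN, an EGF receptor ligand, LPAR3, a receptor for lysophosphatidic acid, NDRG2, METTL7B, GOLT1A, EXOC3L2, SCN4B, KCNE4, VAV3, RUNX1T1 and SCUBE2. Others were MAB21L3, TCIM, MSLNL, TP53AIP1, RFX8, RNF223, MYRFL, PRR18, VWA3A, N4BP3, GPR78, THNSL2, SYT14 and RASGEF1B. Reads of some are shared with overlapping genes. All of the exonic length of CLDN22 is overlapped, as is 81.21% of AP002373.1, 72.44% of CCDC13 and 50.27% of FAM71E2. Over the 148 members, 92 had no exonic overlap with another gene, and 7 had more than 50%. Whether the counting used strand is not given, so reads of a member and of a gene on the opposite strand may not have been told apart.

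**Figure D5:**
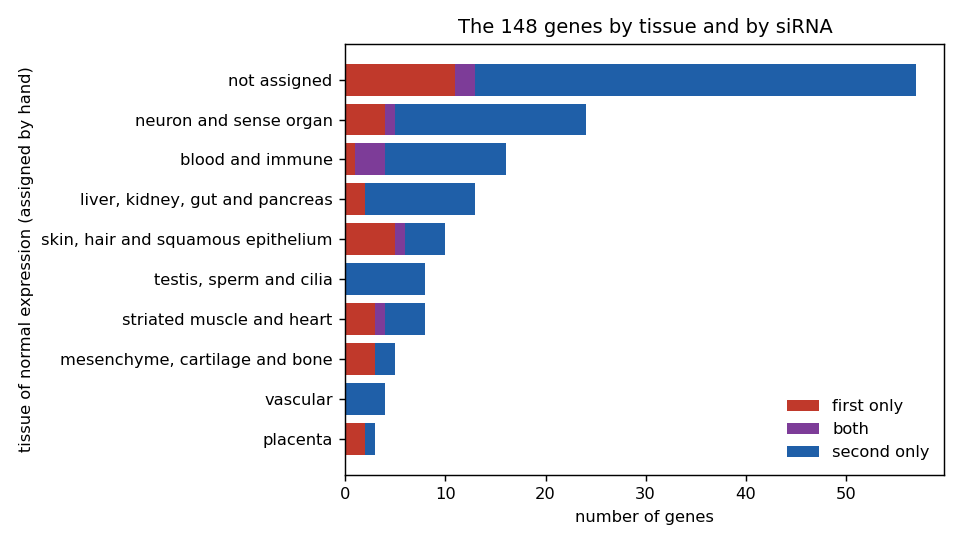
Number of the 148 genes (x axis) in each tissue of normal expression assigned by hand (y axis), colored by class. The 8 testis and 4 vascular genes were all second only, and skin, hair and squamous epithelium held 5 first-only genes among 10. Over all 148 genes, 109 were second only and 31 first only.

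The tissue of 91 members was assigned by hand once the members were known. Separately, 16 gene lists by tissue or process were counted, and most held few members. The list of skeletal and heart muscle had 3 of 47 silent genes on (TNNC1, TNNT2 and XIRP1, 6.38%), that of blood and immune cells 4 of 76 (5.26%) and that of bone and cartilage 1 of 20 (5%), beside 2.47% of all silent genes. Endothelial and platelet genes gave 1 of 21, skin and hair 3 of 87, neuron and glia 3 of 96, kidney 1 of 32, pancreas and endocrine 1 of 55, liver 1 of 65 and testis 1 of 90. No silent gene was on in the lists for simple epithelium (0 of 38), eye and ear (0 of 46), homeobox and body pattern (0 of 60), smooth muscle (0 of 9), interferon response (0 of 9) and ER stress (0 of 1). Counts this small give no order among the lists.

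Members lay on 23 chromosomes. Chromosome 19 held 19 of them, 4.42% of its 430 silent genes, chromosome 1 held 17 (2.8% of 608) and chromosome 2 held 15 (4.9% of 306). Chromosome 17 held 11 members (3.13% of 351), 3 of them KRTAP4 genes. Over all silent genes the share was 2.47%, and differences between chromosomes were not tested. The X chromosome held 3 (0.838% of 358) and the Y chromosome none of 45. Chromosome 19 had 6 first-only and 13 second-only genes, and chromosome 2 had 2 and 13, beside 31 and 109 over all members. Of the 8 genes on with both, XIRP1, ARL14 and TMIE lay on chromosome 3, where 9 of 296 silent genes were members (3.04%).

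With at most 1 Mb from one member to the next, 47 members lay in 21 groups, and 101 stood alone. Of these groups, 2 were wholly first only (PSG5 with PSG9, and TNNC1 with ITIH3), 8 were wholly second only and 9 mixed first-only with second-only genes. Since 109 of the 148 members were second only, few wholly first-only groups follow from the class sizes, and these counts were not set against silent genes at large. In the mixed groups, first-only and second-only genes were neighbors. On chromosome 13, SCEL was on with siZIP7_1 and ACOD1 with siZIP7_2. On chromosome 17, CCDC144A was on with siZIP7_1 and TNFRSF13B with siZIP7_2, and on chromosome 1 the same held for TNNT2 against PTPN7 and ADORA1. On chromosome 19 this was the case for SMIM24 against CELF5 and MATK, HSH2D against CYP4F11, FFAR1 against FXYD7 and FAM83E against CGB3, and on chromosome 5 for PCDHA12 against PCDH12. MAB21L4, near PDCD1, was first only by 1 read in 2 libraries. The groups that were wholly second only were IL37 with IL36G and IL36RN, SLC6A7 with CAMK2A, CDH5 with BEAN1, KCNH4 with HCRT, COX6B2 with FAM71E2, EXOC3L2 with GPR4, FXYD2 with SCN4B and ANO4 with SYCP3. SLC22A13 and SLC22A14 lay near XIRP1, and KRTAP4-8 near KRTAP4-7 and KRTAP4-11.

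The nearest gene on each side that was no member was not used by the rule and could be tested. Next to members on with siZIP7_1, 38 of 75 neighbors had enough reads, and 18 of the 38 were higher (47.4%) and 11 lower (28.9%) with siZIP7_1 at an edgeR adjusted p under 0.05. Over all protein-coding genes tested these shares were 35.6% and 40.5%. Next to members on with siZIP7_2, 137 of 223 neighbors were tested, 68 were higher (49.6%) and 47 lower (34.3%), beside 37.7% and 43.9%. The median log2 change of the neighbors was 0.216 with siZIP7_1 and 0.141 with siZIP7_2, against -0.0378 and -0.0584 over all protein-coding genes tested. So higher calls outnumbered lower ones next to members, the reverse of the whole, although the difference itself was not tested. A neighbor with almost no siNC reads passed the low-count filter only through an siRNA group, so it could hardly be called lower. SLC6A12, at 0.151 CPM with siNC and 26.4 with siZIP7_2, was such a case. How common these were next to members and over all genes was not counted, so no conclusion is drawn from the excess. Within 100 kb, 15 of 27 neighbors were higher with siZIP7_1 (55.6%) and 59 of 115 with siZIP7_2 (51.3%).

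Several neighbors changed strongly, and they are named after their values were seen. SLC6A12, a betaine and GABA transporter 6051 bases from SLC6A13, was at 0.151 CPM with siNC and 26.4 with siZIP7_2, a log2 change of 7.39 (SE 0.28, edgeR adjusted p = 1.11e-19). IL11, a cytokine gene 1129 bases from FAM71E2 and 9575 from COX6B2, was at 81.2 CPM with siNC, 17.5 with siZIP7_1 and 1390 with siZIP7_2 (log2 change with siZIP7_2 4.10, SE 0.0717, edgeR adjusted p = 2.60e-27). TNFSF15, 87217 bases from TNFSF8, rose from 31.7 to 502 CPM with siZIP7_2 (3.98, SE 0.0733, edgeR adjusted p = 8.50e-27). In each of these pairs the member was on with siZIP7_2 only. KISS1, the precursor of kisspeptin, 1674 bases from GOLT1A, rose with both siRNAs, from 2.17 to 38 and 56.8 CPM. ALS2CL, 824 bases from TMIE, also rose with both, from 14.9 to 146 and 43.6 CPM. RASSF9, 37725 bases from NTS, rose by 3.70 on the log2 scale with siZIP7_1 (SE 0.215, edgeR adjusted p = 2.91e-15) and fell by 2.58 with siZIP7_2 (SE 0.538, adjusted p = 8.78e-05). Not all neighbors moved with the member. NFIC, 4769 bases from SMIM24, fell by 1.66 with siZIP7_1 (SE 0.0538, edgeR adjusted p = 3.22e-21). KCTD12, 62107 bases from ACOD1, fell by 1.69 with siZIP7_2 (SE 0.0672, edgeR adjusted p = 3.44e-19). PDE4B, 158804 bases from SGIP1, fell by 2.50 with siZIP7_1 (SE 0.254, edgeR adjusted p = 6.76e-10).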

How the data were processed

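Total RNA of MDA-MB-231 cells was sequenced as single reads, and the authors deposited 1 file of raw counts per gene for each of the 9 libraries. The submitters' processing notes name Trim Galore 0.4.1, FastQC 0.11.2, STAR, HTSeq 0.6.1 and DESeq2 1.16.1. The genome build and the strand setting of the counting are not given in the sources used here. Rows that name no gene were left out of library sizes and tests.

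Groups were taken from the labels. Gene types, positions and exonic lengths came from GENCODE 29, which held 58275 of the 58395 identifiers, and promoters from RefSeq (GRCh38.p14). The members and all lists were chosen with earlier results of these data known, and tissues were assigned by hand once the members were known. By rule, the genes named with values were the 12 with the highest RPKM in each class, members of the gene lists, members with no siNC read and a mean of at least 30 with an siRNA, those next to a limit, those within 1 Mb of another member, those on with both and SLC39A7. Others were named with values as examples of a tissue, after their values were seen. Members chosen on the contrast with siNC were not tested against it. Other genes, and siZIP7_2 against siZIP7_1, were tested with edgeR 4.0.16 in R 4.3.3 (filterByExpr, TMM, quasi-likelihood, all 3 groups in 1 fit), with Benjamini-Hochberg adjustment over 16761 genes. Of the 148 members, 146 passed the low-count filter, and HCRT and PTPN7 did not. Ratios to siNC carry exact counting intervals at 95%, and where siNC had no read a floor of 3 counts over the group was used. CPM and RPKM use TMM effective library sizes, except that the summed level of the members and the CPM of 3 reads are per total count on genes. Alternatives were other limits, scaled counts, DESeq2 1.42.0, genes without exonic overlap, each library left out and the replicate number as a block. The rule and the edgeR step were run on simulated data with known changes. For the rule the simulated means lay far from both limits, so that run says nothing about genes near them. Python 3.11.15 and bedtools 2.31.1 were used. Some items, 1 member among them, are not reported here.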

Additional observations from a re-analysis of the deposited data

Results flagged for a closer look

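Of the 8 genes on with both siRNAs, 6 differed between them by the edgeR test of the difference itself, given as the log2 level with siZIP7_2 minus that with siZIP7_1. This share is near the background, since over all protein-coding genes tested 38.6% were higher and 43.7% lower with siZIP7_2. KRTAP4-8 stood at -4.28, GPR65 at -2.82 and CSF2RB at -0.52, all lower with siZIP7_2. ARL14 stood at 2.17, IL16 at 2.46 and XIRP1 at 2.81, all higher with siZIP7_2 in 3 of 3 libraries. CSF2RB did not keep its call in every alternative.

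Outside the genes, reads that fell on no annotated gene made up at least 9.99% of each siZIP7_2 library, above the 7.43 to 8.28% of the siNC libraries. These reads entered no comparison.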

How the results depend on the processing

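The number of members depends on the limits. It was 148 as reported (39 on with siZIP7_1, 117 with siZIP7_2, 8 with both). With at most 1 siNC read it was 43 (13, 30 and 0), with 0 siNC reads 10 (5, 5 and 0) and with at most 5 siNC reads 247 (73, 195 and 21). With at least 5 reads for on it was 328 (99, 261 and 32) and with at least 20 it was 61 (20, 44 and 3). Without exonic overlap there were 92 (24, 73 and 5). Scaling by TMM or by DESeq2 size factors gave 5 genes on with both. In each of these settings except 0 siNC reads, more genes were on with siZIP7_2 than with siZIP7_1.

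Without each library in turn the members ranged from 149 to 183, those on with siZIP7_1 from 39 to 52, with siZIP7_2 from 117 to 145 and with both from 8 to 13 (13 without siNC replicate 1). Genes silent with siZIP7_2 and on with siNC ranged from 3 to 6 (6 without siNC replicate 2). Of the neighbors of genes on with siZIP7_1, 6 were lower within 100 kb against 11 at any distance. The CSF2RB difference lost its call with DESeq2 and without each of 4 libraries, and that of TMIE gained one without siZIP7_1 replicate 3, the causes of which were not tested. No value changed sign.

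Equal replicate numbers showed no sign of pairing the samples. Deviations of libraries with the same number correlated at -0.0919 to 0.118 and those with different numbers at -0.209 to 0.164. With 3 libraries per group these values cannot exclude a pairing. With the replicate number as a block, 3 genes on with both were higher and 3 lower with siZIP7_2, 19 and 11 neighbors were higher and lower with siZIP7_1 and 69 and 47 with siZIP7_2. Depth limits all statements on genes near 3 or 10 reads, where a few reads set the class.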
